A study of Homo sapiens with 24 samples.

Results

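Chromatin accessibility was compared between HEK293 cells overexpressing lamin B2 (LMNB2) and HEK293 cells overexpressing lamin B1 (LMNB1), with 3 ATAC-seq libraries in each group. The libraries were chosen by their labels, and the regions were all 175946 windows that the deposited count table centres on annotated non-coding features, of 1231278 windows in that table. Each feature window reached 125 bp beyond its feature on both sides. The other 1055332 windows were flanks of 500, 5000 and 50000 bp that began 350 bp outside a feature window, and they were used beside the features. Of the feature windows, 163786 had enough counts to be tested.

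HEK293 is a human embryonic kidney line, described in the labels as wild type, and the series holds 24 libraries of these cells, 12 of them ATAC-seq. All groups carried an overexpressed gene: the LMNB2 and LMNB1 groups are compared here, and the GFP (eGFP) and LMNA groups entered only the estimate of the spread. The labels do not say by what vector or for how long the genes were overexpressed, nor whether replicates were separate cultures, so p-values measure the spread between these libraries, which may be technical. The comparison sets one lamin against the other and has no baseline of its own.

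Lamins are intermediate filament proteins that form a meshwork under the inner nuclear membrane. LMNB1 and LMNB2 encode the B-type lamins, which stay attached to the membrane through a lipid anchor, whereas LMNA encodes the A-type lamins. Chromatin that touches the lamina is mostly gene-poor and closed, and ATAC-seq measures open chromatin as the places where a transposase can insert sequencing adapters.

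The sequences that the largest differences touched are given first, from RefSeq (GRCh38.p14). MIR7108 is a microRNA gene inside LMNB2, and its windows had the highest fold changes of the comparison. In the mature strands below the capitals mark the seed, bases 2 to 8, and the 2 arms have different seeds. On the minus strand, the 5p arm lies at chr19:2434980-2435000 and the 3p arm at chr19:2434914-2434933.
hsa-miR-7108-5p: gUGUGGCCggcaggcgggugg
hsa-miR-7108-3p: aCCCGCCCgucuccccacag

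RefSeq lists 2 start sites for LMNB1, and the 300 bp around each are shown because counts there separated into 2 kinds, described below. The first sequence is chr5:126776373-126776672 and the second chr5:126776886-126777185, both on the plus strand. Capitals mark matches on either strand to the GC box GGGCGG, the CCAAT box CCAAT, the E-box CACGTG and the TATA box TATAAA.
LMNB1 start 1: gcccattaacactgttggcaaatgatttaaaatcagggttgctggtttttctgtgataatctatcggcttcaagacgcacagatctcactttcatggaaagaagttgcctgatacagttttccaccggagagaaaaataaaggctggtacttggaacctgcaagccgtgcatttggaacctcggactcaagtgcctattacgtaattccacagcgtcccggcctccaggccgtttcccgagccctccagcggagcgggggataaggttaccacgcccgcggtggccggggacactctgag
LMNB1 start 2: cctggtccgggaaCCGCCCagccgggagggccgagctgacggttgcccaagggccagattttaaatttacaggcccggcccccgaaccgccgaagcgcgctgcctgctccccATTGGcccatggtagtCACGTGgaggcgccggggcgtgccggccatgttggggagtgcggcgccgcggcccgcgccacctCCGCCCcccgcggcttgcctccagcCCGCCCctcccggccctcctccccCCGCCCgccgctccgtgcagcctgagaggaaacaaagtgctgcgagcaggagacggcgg

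The first sequence held no match to these motifs. The second held 4 matches to the GC box, found in 45.0% of 35116 RefSeq promoters of the same length, 1 to the CCAAT box (34.6%) and 1 to the E-box (7.26%). Neither held the TATA box, found in 11.5%. A match is a description of the letters and not a binding site.

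Only windows over the overexpressed genes passed the test. By edgeR's quasi-likelihood test, with p-values adjusted by Benjamini-Hochberg, 2 feature windows were higher in LMNB2 (0.00122% of those tested) and 3 were lower (0.00183%), and these 5 (0.00305%) all overlapped LMNB2 or LMNB1. At an unadjusted p under 0.05, 5158 windows were higher (3.15%) and 3001 were lower (1.83%). Of all tested windows, 48.6% had a positive fold change.

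Among the 22 windows over a lamin gene, the 8 over LMNB2 had log2 fold changes from 8.40 to 9.84. The widest, named lnc-GADD45B-1 (chr19:2414093-2654421), held 43118, 36040 and 45481 CPM (counts scaled to a common library total) in LMNB2 replicates 1 to 3 and 91.3, 92.0 and 186 CPM in LMNB1 replicates 1 to 3. It was higher by 8.40 on the log2 scale (SE 0.374, adjusted p = 0.00077). The groups lay far apart, and LMNB1 replicate 3 was above the other LMNB1 libraries.

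The window of lnc-TIMM13-1 (chr19:2414108-2612012), on the opposite strand over much of the same sequence, was the other called window, at 8.53 (SE 0.408, adjusted p = 0.000926). The window on the 3p arm of MIR7108 (chr19:2434764-2435083) held 1.87, 1.70 and 18.6 CPM in LMNB1 replicates 1 to 3 and 6978, 5765 and 7453 CPM in LMNB2. Its log2 fold change of 9.84 had an SE of 1.35 and did not pass (adjusted p = 0.464), although the groups did not overlap.

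This window showed the unequal LMNB1 libraries most clearly. Replicate 3 of LMNB1 held 10.4 times the mean of the other LMNB1 libraries there, against 2.03 times in lnc-GADD45B-1. In NONHSAG024437.2 (chr19:2431404-2457099), a long non-coding RNA interval over most of LMNB2, the ratio was 6.24 and the log2 fold change 9.67 (adjusted p = 0.324). Without LMNB1 replicate 3, the number of windows called higher rose from 2 to 5.

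The LMNB1 windows divided by position. The widest, a signal recognition particle RNA annotation (Metazoa_SRP_SRP_RNA_URS0000941A94, chr5:126627602-126936059), held 24443, 29798 and 21827 CPM in LMNB1 replicates 1 to 3. In LMNB2 replicates 1 to 3 it held 69.7, 74.2 and 99.3 CPM, a log2 fold change of -8.29 (SE 0.340, adjusted p = 0.00077). It spans LMNB1 and much beside it, so its level says nothing of that RNA.

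LMNB1-DT is a non-coding transcript that runs away from LMNB1 on the opposite strand. Its annotated isoforms gave 6 windows, and those that reached past the second LMNB1 start were the ones that changed. The window chr5:126777052-126778380 fell by 9.16 on the log2 scale (SE 0.513, adjusted p = 0.00262), from 9828, 12072 and 8697 CPM to 14.2, 15.1 and 24.1 CPM. The window chr5:126776099-126778380 fell by 8.70 (adjusted p = 0.00077). The other 5 of the 8 LMNB1 windows, which end before chr5:126777068 or at it, had log2 fold changes from -0.12 to -0.04, none called.

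No window over LMNA passed the test, and the 6 log2 fold changes ran from -0.87 to 0.10. The lowest was that of lnc-SEMA4A-1, over the body of LMNA, with 13.3, 16.5 and 7.07 CPM in LMNB1 and 7.34, 5.50 and 7.36 CPM in LMNB2 replicates 1 to 3 (adjusted p = 0.975). LMNB1 replicate 3 lay within the LMNB2 range there.

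The calls at the lamin genes depended on how the spread was estimated. With only the 6 libraries compared in the fit, lnc-GADD45B-1 had an adjusted p of 0.309 and the widest LMNB1 window one of 0.126, and no lamin window was called. The LMNB1-DT window chr5:126777052-126778380 also lost its call with the replicate block and without LMNB2 replicate 1 or 2. With DESeq2 all 8 LMNB2 windows and 3 LMNB1 windows were called.

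**Figure D1:**
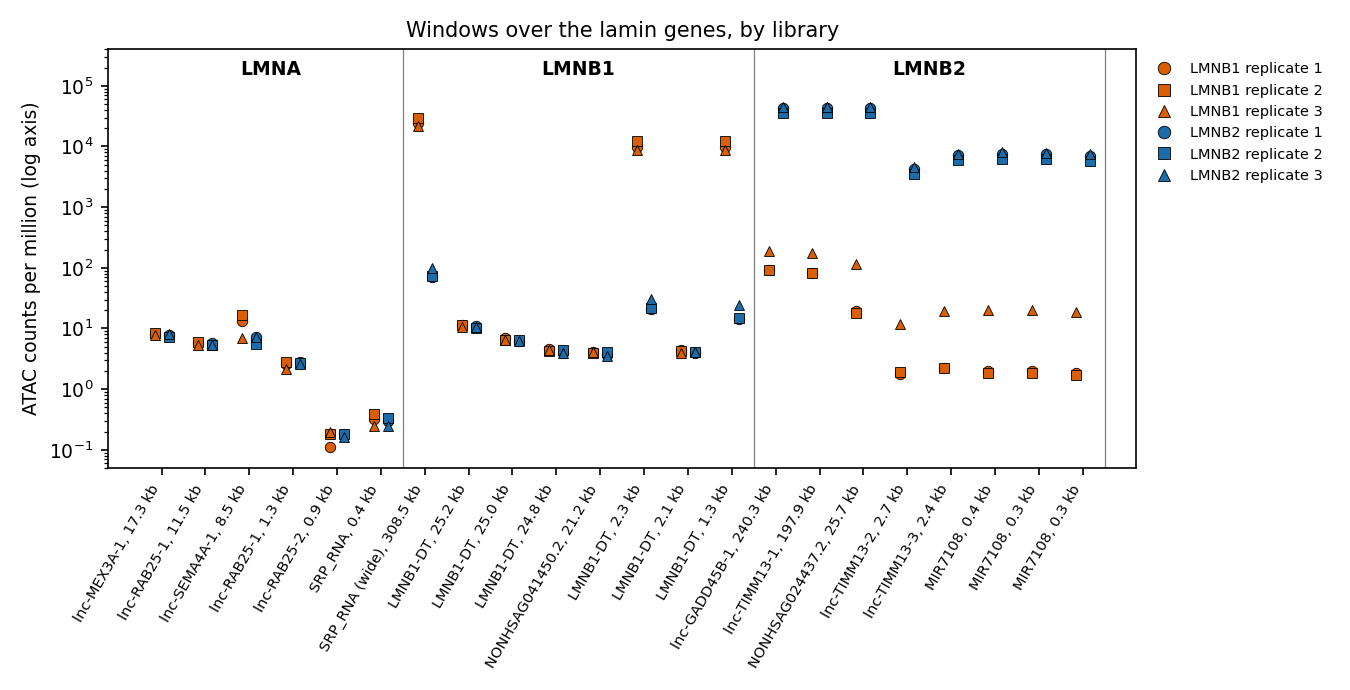
ATAC CPM (log axis) of the 22 windows over LMNA, LMNB1 and LMNB2, one point per library, with each window's name and width below. The 8 LMNB2 windows and the 3 LMNB1 windows that changed are separated by more than 2 orders of magnitude, and LMNB1 replicate 3 stands above the other LMNB1 libraries over LMNB2.

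The 500 bp flank windows placed these counts more finely. Of 229879 tested, 1 was higher in LMNB2 (0.000435%) and 5 were lower (0.00218%) by the same test, and all 6 (0.00261%) were at the lamin genes. The window chr5:126776202-126776701, which contains the whole first LMNB1 sequence shown above, held 594, 686 and 530 counts in LMNB1 replicates 1 to 3 and 605, 651 and 577 in LMNB2 (log2 fold change 0.01, adjusted p = 1). The groups overlapped.

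The next window, chr5:126776988-126777487, contains the second start and held 1981, 2858 and 2252 counts in LMNB1 against 1163, 1109 and 942 in LMNB2 (-1.15, adjusted p = 2.92e-14). The window chr5:126777170-126777669 held 1516505, 2146082 and 1345329 counts in LMNB1 against 1569, 1825 and 3023 in LMNB2 (-9.58, adjusted p = 0.0283). Most of the high counts therefore lay past base 126777487, although the window ending at that base was already higher in LMNB1. LMNB2 replicate 3 was the highest LMNB2 library in chr5:126777170-126777669.

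At chr5:126778731-126779230 the level was again alike in all libraries, with 233, 234 and 184 counts in LMNB1 and 225, 261 and 198 in LMNB2 (0.06). Flank counts at LMNB1 thus changed by 3 orders of magnitude over a stretch bounded by windows that did not pass. The number of 500 bp windows called lower was 2 when any of the 6 libraries was left out.

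LMNB2 showed the same kind of edges. The window chr19:2433914-2434413 held 3522207, 2996729 and 3292506 counts in LMNB2 replicates 1 to 3 against 885, 953 and 8014 in LMNB1 (9.89, adjusted p = 0.930). The window chr19:2435434-2435933 held 24, 20 and 13 counts in LMNB2 against 21, 36 and 32 in LMNB1 (-0.60). Near the 3′ end of the gene, chr19:2430554-2431053 held 6153, 5804 and 5265 counts against 47, 45 and 55, and was the single window called higher (6.79, adjusted p = 1.31e-65).

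**Figure D2:**
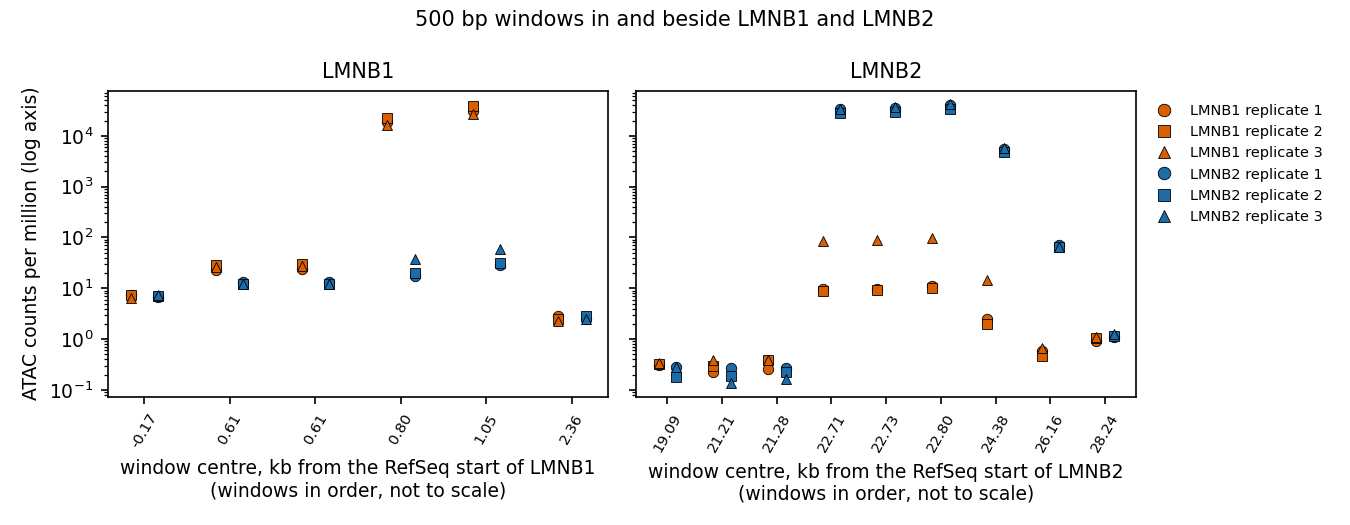
ATAC CPM (log axis) of the 500 bp windows in and beside LMNB1 (left) and LMNB2 (right), ordered by the distance of the window centre from the RefSeq start in kb (in order, not to scale), one point per library. Levels are alike in both groups at the first LMNB1 window and separate by about 3 orders of magnitude inside both genes, then return.

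Counts from the chromosomal genes and from the introduced copies cannot be told apart in these tables. The widest LMNB2 window took 4.42, 3.55 and 4.64% of all feature window counts in the LMNB2 libraries and 0.0096, 0.0097 and 0.0203% in LMNB1 replicates 1 to 3. The widest LMNB1 window took 2.57, 3.15 and 2.38% in the LMNB1 libraries. Windows nested in these counted the same reads again, as lnc-TIMM13-1 (12084411) and NONHSAG024437.2 (12061508) did beside lnc-GADD45B-1 (12087249) in LMNB2 replicate 1. All windows over a gene together thus took a larger share than its widest.

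The small RNA libraries of the same conditions gave a separate readout of these features, since they were made from cells collected again under each condition. There 618 of 33893 tested features were higher in LMNB2 (1.82%) and 124 were lower (0.366%) by edgeR's quasi-likelihood test. The MIR7108 hairpin had 24.6, 26.3 and 23.5 small RNA CPM in LMNB2 replicates 1 to 3 and 0.0302, 0.0612 and 0.0116 in LMNB1 (9.05, adjusted p = 4.15e-10). LMNB1 replicate 3 was the lowest library there, not the highest. The hairpin lies inside LMNB2, and the overlapping lnc-TIMM13-3 and NONHSAG024437.2 were also higher in small RNA (9.51 and 8.99). Small RNA from the hairpin and from other LMNB2 sequence was not separated, so this level does not show a change of the mature microRNA.

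LMNB1-DT (chr5:126777052-126778380) had 17.8, 19.3 and 17.6 small RNA CPM in LMNB1 and 0.398, 0.352 and 0.398 in LMNB2 (-5.53, adjusted p = 7.72e-11). That interval lies inside LMNB1. The LMNB1-DT window chr5:126751813-126776636, which ends before the changed stretch, had 0.0664, 0.0612 and 0.0406 small RNA CPM in LMNB1 replicates 1 to 3. In LMNB2 it had 0.0663, 0.0704 and 0.0284 (-0.00014). Both assays thus changed in the same direction over sequence inside LMNB1 and LMNB2, which is not a readout of LMNB1-DT itself. In NONHSAG024437.2 the small RNA level was 0.713, 0.753 and 0.621 CPM in LMNB1 replicates 1 to 3, so the excess of replicate 3 in ATAC was not seen in the small RNA library of that number.

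Setting each feature window against its own 50 kb flanks asked whether a feature differed from its surroundings. Of 163534 windows tested this way, 17 were higher in LMNB2 (0.0104%) and 11 were lower (0.00673%) by edgeR's quasi-likelihood test. All 28 (0.0171%) lay within 100 kb of a lamin gene: 16 at LMNB1, 11 at LMNB2 and 1 at LMNA.

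Only 4 of the 28 were also called in their own window. LINC01775, a non-coding gene upstream of LMNB2 (chr19:2458787-2462335), held 0.816, 0.886 and 0.771 CPM in LMNB1 and 0.688, 0.699 and 0.688 CPM in LMNB2, a log2 fold change of -0.25 (SE 0.139, adjusted p = 0.975). Relative to its flanks it fell by 9.40 (adjusted p = 0.000248), and one of those flanks contains the LMNB2 counts. The LMNB1-DT window chr5:126751813-126776636 likewise had -0.12 by itself and 8.87 relative to flanks that contain the LMNB1 counts.

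The single call at LMNA was lnc-RAB25-1 (chr1:156082450-156083763), over the start of the gene. It held 2.60, 2.84 and 2.18 CPM in LMNB1 and 2.78, 2.65 and 2.62 CPM in LMNB2, with a log2 fold change of 0.08 by itself and 0.65 relative to its flanks (adjusted p = 0.0497). Its flank holds lnc-SEMA4A-1, whose values are given above. No window elsewhere in the genome was called relative to its flanks.

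Away from the lamin genes the feature windows with the lowest p were wide when higher in LMNB2 and mostly narrow when lower. The 9 such windows higher in LMNB2 spanned 31535 to 471074 bp with log2 fold changes of 0.24 to 0.63 and adjusted p of 0.438 to 0.464. The 9 lower ones spanned 407 to 9284 bp, from -0.60 to -0.19, with adjusted p of 0.438 to 0.905. None was called, and they were taken for their p, so their direction is a description. All lay outside the other group's range because that was required of them, as was a level at or above the median of tested windows. Of all tested windows, 6.17% lay outside that range in the higher direction and 5.24% in the lower.

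The largest higher fold change was at ENSG00000162618.15 (chr1:78890944-78922478), over ADGRL4, an adhesion G protein-coupled receptor of blood vessel lining cells. It held 0.813, 0.768 and 0.925 CPM in LMNB1 and 1.24, 1.44 and 1.19 CPM in LMNB2 (0.63, SE 0.128, adjusted p = 0.438). Another, ENSG00000226149.6 (chr6:129510073-129575573), overlaps the end of LAMA2, which encodes a laminin chain of the muscle basement membrane, and held 4.29, 4.63 and 5.13 CPM against 6.02, 6.64 and 5.84 (0.40, SE 0.083).

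Others covered or neighboured genes of other kinds. SCN1A-AS1 (chr2:165957420-166171661) runs opposite SCN1A, a neuronal sodium channel gene, and held 9.48, 9.44 and 10.1 CPM in LMNB1 and 11.4, 12.8 and 11.4 CPM in LMNB2 (0.30). lnc-FAM171B-1 (chr2:187003125-187428535), over the receptor gene CALCRL, also had 0.30. AC079793.1 had 0.27, and HDAC2-AS2 (chr6:113995805-114235866), over the heparan sulfate enzyme gene HS3ST5, had 0.24.

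Relative to their flanks these 9 windows had log2 fold changes from -0.03 to 0.58, with no adjusted p under 0.883. For AC079793.1 the value was -0.03, so its flanks were higher by about as much. DESeq2 called all 9, with adjusted p from 0.0101 to 0.0497, so their call depended on the tool.

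Among the lower windows was a U5 small nuclear RNA copy inside HHAT (U5_snRNA_URS00006BD454, chr1:210374005-210374417). U5 is part of the spliceosome, and this window held 2.41, 2.03 and 2.03 CPM in LMNB1 and 1.49, 1.63 and 1.42 CPM in LMNB2 (-0.51, SE 0.104, adjusted p = 0.438). It was as low relative to its flanks (-0.50, adjusted p = 0.266), and DESeq2 called it (adjusted p = 0.0241). Its small RNA level had a log2 fold change of -0.27 (adjusted p = 0.554).

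A U6 gene on chromosome 19 (RNU6-1;RNU6-9, chr19:893334-893740), which also encodes a spliceosomal RNA, held 1.06, 1.04 and 1.05 CPM in LMNB1 and 0.606, 0.744 and 0.716 CPM in LMNB2 (-0.60, SE 0.140, adjusted p = 0.582). The 18S ribosomal RNA gene RNA18SN3 (chr21:8392516-8394684) held 73.7, 73.8 and 70.0 CPM against 60.7, 66.8 and 60.1 (-0.21, adjusted p = 0.727), and -0.07 relative to its flanks. Ribosomal RNA and U6 copies are near-identical, and how reads shared by copies were counted is not given in the sources used here, so values of single copies are uncertain.

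**Figure D3:**
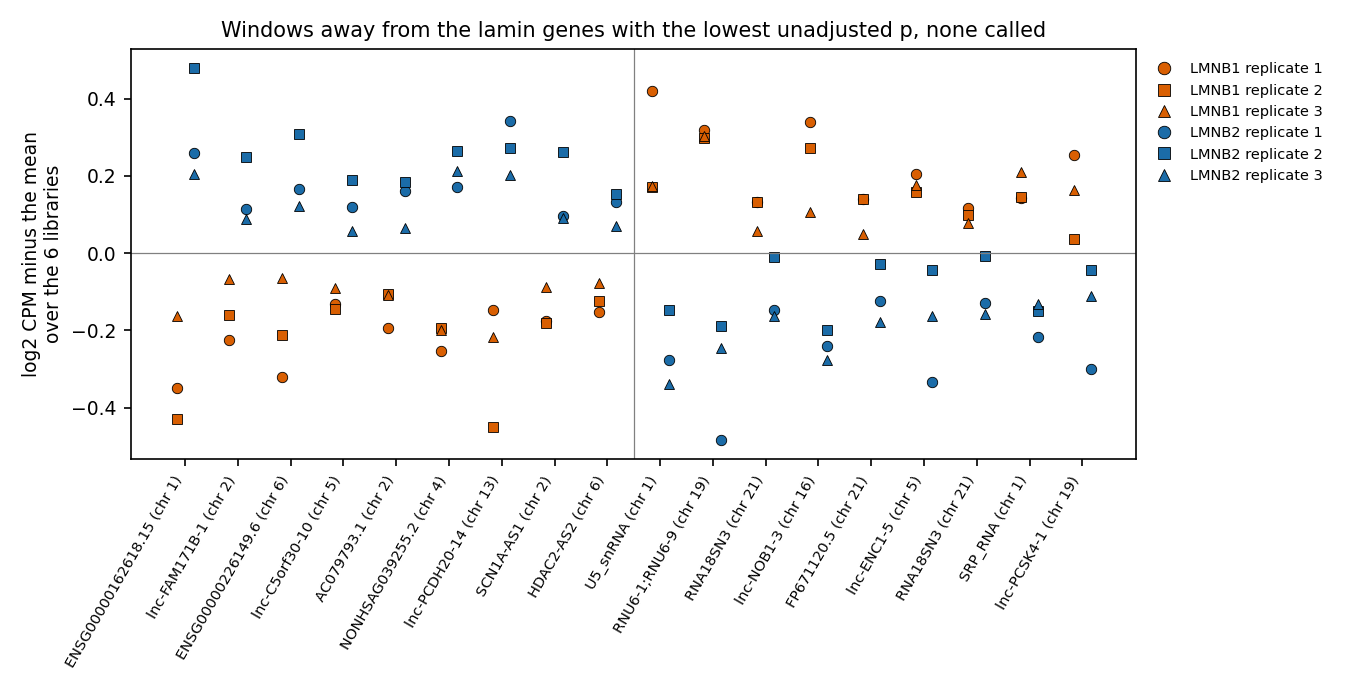
Log2 CPM minus the window's mean over the 6 libraries, one point per library, for the 18 uncalled windows away from the lamin genes with the lowest p, 9 higher and 9 lower in LMNB2. The 3 LMNB2 points lie on one side of the 3 LMNB1 points in every window because the windows were chosen that way.

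The wider flanks held calls away from the lamin genes. Of 350327 flanks of 5 kb, 7 were higher in LMNB2 (0.002%) and 7 were lower (0.002%), and of 351053 flanks of 50 kb, 32 were higher (0.00912%) and 16 were lower (0.00456%), by edgeR's quasi-likelihood test. All but 4 of the 5 kb calls and 13 of the 50 kb calls were at lamin genes. These 17 windows formed 7 loci, as overlapping flanks share reads, and 6 of the loci were higher in LMNB2.

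Of these loci 4 were on chromosome 6. Beside ENSG00000226149.6 the 5 kb flank chr6:129504723-129509722, inside LAMA2, held 0.121, 0.140 and 0.0939 CPM in LMNB1 and 0.261, 0.242 and 0.255 CPM in LMNB2 (1.06, SE 0.218, adjusted p = 0.0449). The neighbouring locus chr6:129517819-129580540, towards ARHGAP18, rose by 0.38 to 0.46 (lowest adjusted p 0.0118). The ENSG00000226149.6 feature window given above spans most of that locus.

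A flank of HDAC2-AS2 (chr6:113989744-113994743) held 0.246, 0.192 and 0.165 CPM in LMNB1 and 0.353, 0.384 and 0.380 CPM in LMNB2 (0.87, adjusted p = 0.0371). At SAMD3 (chr6:130143328-130196679), 6 overlapping flanks rose by 0.39 to 0.41 (lowest adjusted p 0.0152). All these levels are low, and in no case did the groups overlap.

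On chromosome 2, 4 overlapping flanks at KYNU (chr2:143047623-143100429), which encodes an enzyme of tryptophan breakdown, rose by 0.57 to 0.60. The flank of lnc-GTDC1-18 held 0.508, 0.554 and 0.535 CPM in LMNB1 and 0.776, 0.919 and 0.705 CPM in LMNB2 (adjusted p = 0.0314). On chromosome 1 the flank chr1:239953650-240003649 rose by 0.26, from 2.25, 2.29 and 2.28 CPM to 2.71, 2.72 and 2.72 CPM (adjusted p = 0.0440).

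The locus that fell was a 5 kb flank of lnc-ESYT2-2 at DYNC2I1 (chr7:158911157-158916156), a gene for a dynein motor of cilia. It held 0.471, 0.249 and 0.514 CPM in LMNB1 and 0.193, 0.206 and 0.213 CPM in LMNB2 (-0.99, SE 0.176, adjusted p = 0.00215). LMNB1 replicate 2 lay nearer to the LMNB2 libraries than to the other LMNB1 libraries. The number of 50 kb flanks called higher ranged from 19 to 249 when 1 library was left out, and was 249 without LMNB1 replicate 3.

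None of the 7 loci kept a call in all 6 fits that left out 1 library. The 6 higher loci each lost it without LMNB1 replicate 2 and without LMNB2 replicate 2, and the LAMA2 locus kept it in 0 of the 6 fits, although it was the single locus still called with total counts. The DYNC2I1 locus kept its call in 4 of the 6 and lost it without LMNB1 replicate 1 or 3.

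Windows over Pol III genes, those of the RNA polymerase that makes tRNA, 5S rRNA and a set of other small RNAs, mostly had lower values in LMNB2. Their promoters lie mostly inside or just before short genes, and active copies are open. Of 562 tested windows none was called, against 0.00305% of all windows. A negative log2 fold change was found in 484 of the 562, with a median of -0.12, beside -0.0049 and 51.4% negative over all windows. At an unadjusted p under 0.05, 77 were lower (13.7%) and 2 were higher, beside 1.83% and 3.15% of all windows.

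Nuclear tRNA genes made up most of the class, with 409 of 482 negative and a median of -0.12. The tRNA-Phe-GAA-1-4 window (chr12:124927693-124928065) held 2.77, 2.96 and 2.75 CPM in LMNB1 and 2.08, 2.43 and 2.20 CPM in LMNB2 (-0.33, SE 0.0916, adjusted p = 0.905). An initiator methionine tRNA gene, tRNA-iMet-CAT-1-6 (chr6:26286376-26286747), held 1.18, 1.20 and 1.16 CPM against 0.788, 0.902 and 0.820 (-0.49, SE 0.137, adjusted p = 0.905). Both were picked for low p after their values were seen, and neither pair of groups overlapped.

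By amino acid, 21 of 22 groups of tRNA genes had a negative median, from -0.17 for phenylalanine to -0.07 for tryptophan, with selenocysteine (3 genes) at 0.28. In 11 of the 22 groups the 3 LMNB2 libraries were all below the 3 LMNB1 libraries. The 5S rRNA genes had a median of -0.11 (17 of 17 negative), SNAR genes -0.14 (36 of 38), Y RNA genes -0.19 (4 of 4), vault RNA genes -0.11 (4 of 4) and 7SL genes -0.02. Where copies are alike, the same reads may be counted in several genes, so the negative genes may not be independent of each other.

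The library levels showed how much of this was 1 library. As the median over tRNA windows of log2 CPM minus the window mean, LMNB1 replicates 1 to 3 were at 0.11, 0.11 and -0.03 and LMNB2 replicates 1 to 3 at -0.06, -0.05 and -0.05. The groups did not overlap, but LMNB1 replicate 3 lay close to LMNB2. The median tRNA fold change was -0.16 without that library and -0.10 without either of the other LMNB1 libraries.

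The direction was shared by other windows of high count density. Among tested windows up to 1000 bp, the decile with the most counts per kb had a median of -0.08 with 82.0% negative, and held 360 of the tRNA windows, whose median was -0.13. Relative to their 50 kb flanks the tRNA windows had a median of -0.07 (358 of 482 negative, beside 50.8% of all windows), and after removal of each library's trend on count density -0.05. The part of density in the tRNA difference was not tested further.

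Small nuclear RNA genes read by RNA polymerase II, such as U1 and U2, had a median of -0.11 with 38 of 40 negative, which was -0.04 without LMNB2 replicate 2, -0.05 without LMNB1 replicate 1, -0.18 without LMNB1 replicate 3 and -0.02 after removal of the density trend. Long non-coding RNA windows had a median of -0.0031 and microRNA windows -0.04 (1309 of 2340 negative). The groups of library levels overlapped for the snRNA genes and not for the microRNA windows, at 0.04, 0.05 and 0.05 in LMNB1 and 0.0016, -0.0018 and -0.0086 in LMNB2. After removal of the density trend the microRNA median was -0.0039, with 1185 of 2340 negative.

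**Figure D4:**
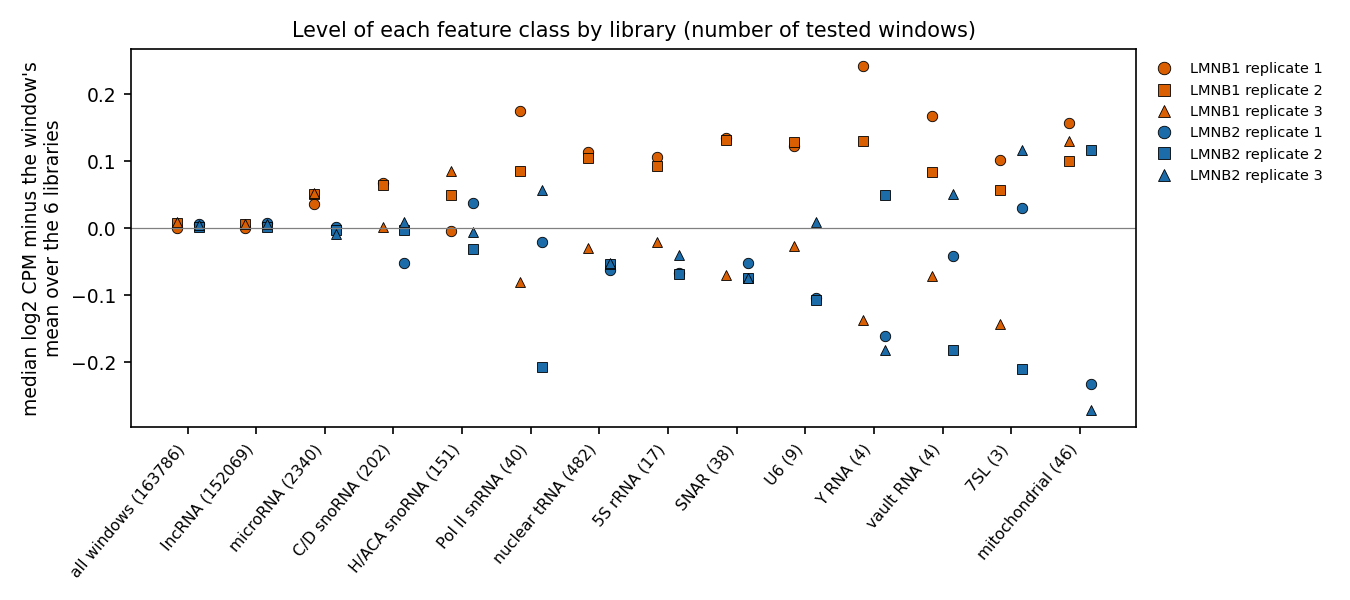
Median over a class of log2 CPM minus the window's mean over the 6 libraries, one point per library, for 14 sets of windows with the number tested in brackets. The tRNA points of LMNB1 replicates 1 and 2 sit at 0.11, those of the other 4 libraries between -0.06 and -0.03, and the mitochondrial points of LMNB2 replicates 1 and 3 lie lowest.

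A list of 33 non-coding genes, most of them well studied, was chosen with earlier results known. It includes lnc-SLC12A7-1, added because earlier results on these data named it. The widest tested window of each gene was taken. None of these windows was called, and 32 of 33 were negative with a median of -0.11, beside 51.4% of all windows. An unadjusted p under 0.05 was found in 5, all lower, beside 1.83% of all windows. In the decile of windows up to 1000 bp with the most counts per kb, 82.0% were negative and 7.72% were lower at that p. The part of count density in the values of the list was not tested. Relative to their 50 kb flanks the median was -0.06, with 27 of 33 negative, beside 50.8% of all windows. RNU4ATAC, a minor spliceosome gene (chr2:121530731-121531157), held 4.31, 4.30 and 4.27 CPM in LMNB1 and 3.49, 3.68 and 4.01 CPM in LMNB2 (-0.20, SE 0.0875, adjusted p = 0.975). RNY3, a Y RNA gene (chr7:148983605-148984006), held 1.05, 0.940 and 1.01 CPM against 0.788, 0.849 and 0.796 (-0.30, SE 0.135, adjusted p = 0.975). In both, every LMNB2 library was below every LMNB1 library, as in 5 of the 33 and in 5.24% of all windows.

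The other widest windows with an unadjusted p under 0.05 were those of VTRNA1-2 (-0.18), RNU11 (-0.22) and RNU4-2 (-0.21). Among Pol III genes of the list, RN7SK, which encodes a regulator of transcription elongation, had -0.02, RMRP -0.0057, RPPH1 -0.02, RN7SL2 0.01, RNU6ATAC -0.14 and BCYRN1 -0.17. Of nuclear long non-coding RNA genes, MALAT1 had -0.12 and NEAT1, the scaffold of paraspeckles, -0.07. Genes with several windows varied: the 39 of MALAT1 ran from -0.27 to 0.17, the 6 of KCNQ1OT1 from -0.29 to 1.24, and 11 of the 31 of MEG3 were negative. The NEAT1 small RNA signal was higher in LMNB2 by 0.84 (adjusted p = 0.0252), while its ATAC groups overlapped.

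Small RNA levels of tRNA features were also mostly lower in LMNB2, with a median of -0.35 (406 of 463 negative, beside 50.8% of all features) and 5 called lower (1.08%, beside 0.366% of all features). SNAR features had a small RNA median of -0.65 (33 of 33 negative), and 5S rRNA features 0.14 with none negative. The 5S genes thus had opposite signs in the 2 assays, while the tRNA and SNAR genes had the same sign. Like copies may share reads here too.

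Mitochondrial DNA, which carries no nucleosomes and takes many ATAC insertions, gave 33.9, 32.8 and 34.1% of feature window counts in LMNB1 replicates 1 to 3 and 25.2, 30.7 and 24.5% in LMNB2. The groups did not overlap, with means of 33.6% ± 0.685 and 26.8% ± 3.43 (SD, n = 3). The difference of -6.80 percentage points gave p = 0.1 in a two-sided exact permutation test, the smallest p that 3 against 3 allows. With flanks included the difference was -3.95 points (p = 0.2, same exact test). The total behind these shares holds the lamin gene windows, which recount shared reads and took a larger part of the LMNB2 libraries. Those counts lower the mitochondrial share more in LMNB2 than in LMNB1. The size of the difference and the lack of overlap were seen with totals that include them, and neither was tested without them. By CPM, the 3 LMNB2 libraries were all below the LMNB1 libraries in 12 of the 46 mitochondrial windows.

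All 46 mitochondrial windows had negative fold changes, from -0.28 to -0.23 with a median of -0.25, and none was called. The median was -0.38 without LMNB2 replicate 2 and -0.09 after removal of the density trend. MT-RNR1, the small mitochondrial ribosomal RNA gene, held 5341, 5147 and 5277 CPM in LMNB1 and 4120, 5137 and 4044 CPM in LMNB2 (-0.25, SE 0.144, adjusted p = 0.975). LMNB2 replicate 2 lay just below the LMNB1 range. These windows share 1 molecule and are not independent of each other.

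The chromosomes differed by small amounts in a graded way. Median log2 fold changes ran from -0.06 on chromosome 17 to 0.04 on chromosome 18. In 7 of 23 chromosomes the 3 LMNB2 libraries were all below the LMNB1 libraries, among them chromosomes 17 (-0.06), 22 (-0.06) and 19 (-0.04). In 6 they were all above, among them chromosomes 4 (0.03) and 13 (0.03), but these positive medians became negative with scaling by total counts (-0.05 on both). On chromosome 18 the libraries overlapped.

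Gene content followed the same order. This grouping was chosen after the data were seen, over 43259 non-overlapping 50 kb flanks. The 17397 flanks with no protein-coding gene had a median log2 fold change of 0.07, with 74.4% higher in LMNB2, against 59.0% of all. Flanks with 1 gene had 0.01, those with 2 had -0.02 and those with 3 to 4 had -0.05, and the 288 flanks with 5 or more had -0.06 with 8.33% higher. With scaling by total counts the order was the same, from 0.05 with no gene through -0.0080 with 1 gene to -0.08.

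These differences were within the spread of single libraries. In flanks with no gene the levels were -0.09, -0.06 and 0.05 in LMNB1 replicates 1 to 3 and 0.02, 0.08 and 0.0077 in LMNB2, so LMNB1 replicate 3 overlapped LMNB2. Without LMNB1 replicate 3 the medians were 0.13 with no gene and -0.10 with 5 or more. Without LMNB2 replicate 2 they were 0.04 and -0.04.

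The count level moved with gene content, with a median of 0.738 CPM in flanks with no gene and 8.54 CPM in those with 5 or more. Among flanks in the highest level group of 3 equal groups, those with no gene had a median of -0.02 with 39.5% higher, and those with 5 or more -0.06 with 3.45% higher. In the lowest level group flanks with no gene had 0.12 and those with 1 gene 0.09. The part of count level in this order was not tested further.

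**Figure D5:**
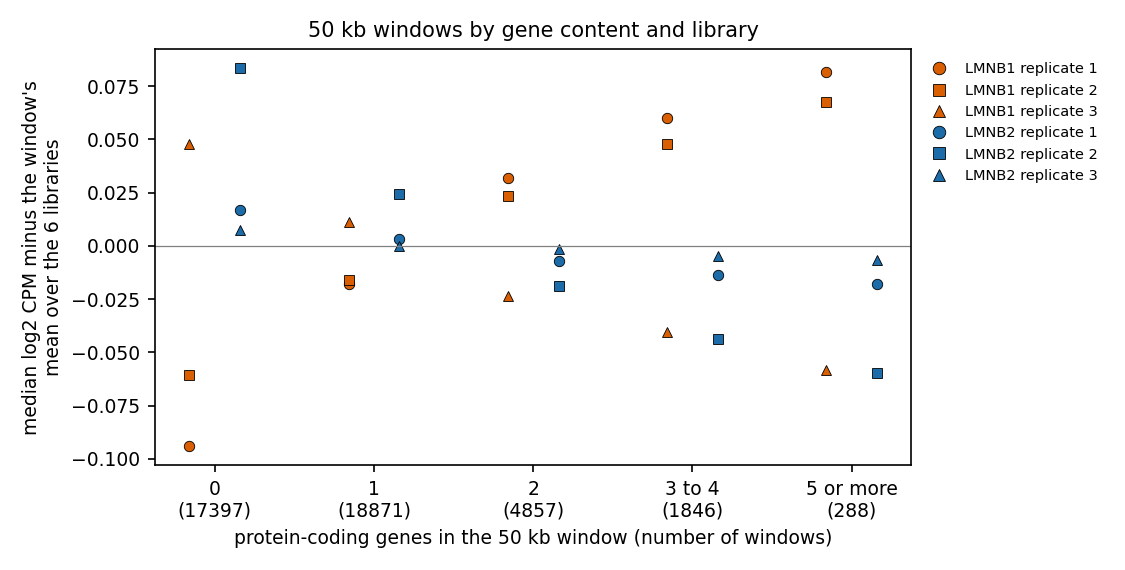
Median log2 CPM minus the window's mean over the 6 libraries for non-overlapping 50 kb flanks, grouped by the number of protein-coding genes they contain, one point per library. LMNB1 replicates 1 and 2 rise and LMNB1 replicate 3 falls from left to right, and LMNB2 replicate 2 runs from 0.08 to -0.06.

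Total feature window counts were 233 to 281 M in LMNB1 and 245 to 290 M in LMNB2, and no 2 replicates agreed within sampling noise (chi-square per degree of freedom 2.94 to 12.5). The log2 ratio of window to 50 kb flank density, a measure of signal over background, was 4.83, 4.81 and 4.72 in LMNB1 replicates 1 to 3 and 4.76, 4.76 and 4.78 in LMNB2 (exact permutation p = 0.6, two-sided). LMNB1 replicate 3 had the lowest ratio.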

How the data were processed

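ATAC-seq and small RNA libraries of HEK293 cells were grouped by their labels, 3 per group. For each assay the authors deposited a table of raw counts, on GRCh38 per the submitters' processing notes; the aligner, counter, strand, handling of multimapped and duplicate reads and any correction of ATAC read ends are not given in the sources used here. Positions count from 1. Overlapping windows share reads, and intervals cover the spread between libraries only.

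All 12 ATAC libraries were fitted with 1 mean per group in edgeR 4.0.16 (R 4.3.3) with low counts removed by filterByExpr, TMM scaling and robust quasi-likelihood dispersions (biological coefficient of variation 0.085) and a prior count of 2. LMNB2 was compared with LMNB1, p-values were adjusted by Benjamini-Hochberg over all windows of a fit, and windows with an adjusted p under 0.05 were called. Flanks were fitted by width, and a further fit used the summed 50 kb flank counts, with a minimum mean of 10, as offset. CPM used TMM-scaled totals. The small RNA table was fitted the same way. The code was tested on simulated data.

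Named were windows over LMNA, LMNB1 and LMNB2, up to 10 windows a direction by fold change among calls, then by lowest p, with groups that did not overlap and a level at or above the median, and a list of 33 genes. Members and lists were chosen with earlier results of these data known. Alternatives were DESeq2 1.42.0, other scalings and filters, the 6 libraries alone, a replicate block, and leaving out each library. Removal of the density trend and the grouping by gene content were added after the data were seen.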

Additional observations from a re-analysis of the deposited data

How the results depend on the processing

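Of the feature window counts (2 higher, 3 lower), DESeq2 gave 38 higher, the 6 libraries alone 0 higher, and removal of the density trend, chosen after seeing the data, 8 higher. Leaving out 1 library gave 2 to 5 higher and 2 to 3 lower, the 5 being without LMNB1 replicate 3. With windows near the lamin genes left out, edgeR called 0 higher and 0 lower, with 8153 windows at an unadjusted p under 0.05. The DESeq2 fit, which kept those windows in, called 31 windows away from these genes in 21 loci, 30 of them higher. The 500 bp flanks gave 1 to 4 higher and 2 to 2 lower when 1 library was left out, the 4 being without LMNB1 replicate 3. The 5 kb flanks gave 4 to 14 higher (14 without LMNB1 replicate 3), and 14 lower with the 6 libraries alone. The 50 kb flanks gave 19 higher with total counts, 173 higher and 33 lower with the 6 libraries alone, and 19 to 249 higher and 14 to 26 lower when 1 library was left out (249 and 26 without LMNB1 replicate 3). Relative to flanks, flanks of 5 kb gave 9 higher and 6 lower, and leaving out 1 library 16 to 24 higher and 11 to 19 lower (19 without LMNB1 replicate 3).

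A replicate block was fitted as an alternative. Deviations of libraries with the same number correlated at 0.10, -0.12 and -0.29, and those with unlike numbers from -0.32 to 0.32. Libraries of the same number were thus no more alike than others. Whether they were handled together cannot be read from these values. With the replicate block, feature windows gave 2 higher and 2 lower, 500 bp flanks 1 and 2, 5 kb flanks 7 and 7, 50 kb flanks 116 and 20, and windows relative to flanks 17 and 11.

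With total counts the median of all windows moved to -0.08, the Pol III median to -0.20 and the tRNA median to -0.20; with the density trend removed they were -0.051 and -0.051. Medians turned negative with total counts on chromosomes 2 (-0.064), 3 (-0.061), 4 (-0.046), 5 (-0.066), 6 (-0.065) and 13 (-0.049), and on chromosome 13 with the trend removed (-0.0056). The cause of these changes was not tested. Depth limits windows of low level: RNU6-1 on chromosome 10, at 0.0547 to 0.0707 CPM in LMNB1, had an SE of 0.425.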

Other observations

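A region of the X chromosome beside CDR1 was called in edgeR's fit of the 6 libraries alone and not in the fit of all 12, and was singled out after its values were seen. The lnc-CDR1-1 window (chrX:140723343-140724375) held 0.793, 0.573 and 0.885 CPM in LMNB1 replicates 1 to 3 and 0.114, 0.171 and 0.204 CPM in LMNB2. Every LMNB2 library was below every LMNB1 library. Its log2 fold change of -2.15 (SE 0.664) had an adjusted p of 0.936 with all 12 libraries and of 3.01e-05 with the 6. In the other groups the window held 0.518, 0.305 and 0.217 CPM (GFP) and 0.170, 1.36 and 0.531 CPM (LMNA), so the GFP libraries lay between the B-type lamin groups and the LMNA libraries ranged across both.

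Window width moved with the sign of the fold change. Windows over 50000 bp had a median log2 fold change of 0.03 with 9.67% higher at an unadjusted p under 0.05, and windows up to 500 bp had -0.06 with 1.39% higher. No difference between these groups was tested.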
